A study of Homo sapiens with 12 samples.

Results

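The 8 genes described here encode the enzymes that make the deoxynucleotides used to copy and repair DNA: RRM1, RRM2, RRM2B, TYMS, DUT, TK1, DCK and DTYMK. They were taken as a list of gene names, with no threshold on their values, from RNA-seq tables of 58735 genes for the cell line 786-O and 29890 genes for the cell line 5637, and each name occurred once in each table. The 12 libraries held 3 shCBX7 and 3 sh control libraries of 786-O (renal cancer cells), and 3 shCBX7 and 3 sh control libraries of 5637 (bladder cancer cells). All cells were grown in RPMI medium with fetal bovine serum, and the labels give no further treatment. The shCBX7 cells carry a short hairpin RNA against CBX7, a chromobox subunit of Polycomb repressive complex 1, and the control cells carry a control hairpin. The labels do not say how many hairpins or clones were used, whether silencing was stable, or whether each library had a culture of its own. The p-values therefore speak of library-to-library spread, which could be technical.

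Ribonucleotide reductase converts ribonucleotides into deoxyribonucleotides. RRM1 is its large catalytic subunit, and the small subunit is either RRM2, which is made in dividing cells and destroyed as they leave the cycle, or RRM2B, which is induced by p53 and serves resting or damaged cells. Thymidylate is made by thymidylate synthase (TYMS) from dUMP, which the dUTPase DUT supplies while it also keeps uracil out of DNA. The salvage kinases TK1 and DCK rebuild nucleotides from nucleosides, thymidine in the case of TK1 and chiefly deoxycytidine in the case of DCK, and thymidylate kinase (DTYMK) carries out the next phosphorylation of thymidylate. Many of these genes are known targets of E2F factors, of NF-Y and of the DREAM complex, which acts through CHR elements, and several of the enzymes are targets of drugs used against tumours.

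Short stretches of the promoters are shown because the genes differed in how they changed, and they show 10 of the places where letters of the E2F or NF-Y motif occur. The windows ran from 250 bases before to 50 after each RefSeq start site (GRCh38.p14), and 12 windows of 7 of the genes were searched on both strands. RRM2B was not among these 7. In each sequence, written 5′ to 3′ on the strand of the gene, the capitals mark the matched motif or its reverse complement.
RRM1, chr11:4094644-4094673, plus strand, CCAAT: ggcatgtccatatCCAATggggcccatggg
RRM2, chr2:10122603-10122632, plus strand, CCAAT: gggcaaggcgcagCCAATgggaagggtcgg
RRM2, chr2:10122633-10122662, plus strand, CCAAT: aggcatggcacagCCAATgggaagggccgg
RRM2, chr2:10122660-10122689, plus strand, CCAAT: cggggcaccaaagCCAATgggaagggccgg
TYMS, chr18:657603-657632, plus strand, TTTNNCGC inverted: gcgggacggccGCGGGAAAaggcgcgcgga
DUT, chr15:48332151-48332180, plus strand, TTTNNCGC in both directions: gctgGCGGGAAAtttcggtTTTGGCGCgct
TK1, chr17:78187113-78187142, minus strand, CCAAT inverted: cggccgggcgctgATTGGccccatggcggc
TK1, chr17:78187082-78187111, minus strand, CCAAT inverted: gggccggctcgtgATTGGccagcacgccgt
DCK, chr4:70993659-70993688, plus strand, TTTNNCGC inverted: gctgcctccgcGCGCCAAAgtcaaaccccg
DTYMK, chr2:241686823-241686852, minus strand, CCAAT: ctgttgacgccggCCAATgggagctccgga

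The printed RRM2 copies of CCAAT lay 123, 93 and 66 bases before 1 of its RefSeq start sites and downstream of the other, at 10122568. Each was followed by the same run of bases. The copies of TK1 lay 77 and 46 bases before 1 of its 2 start sites and downstream of the other, whose window held no CCAAT. Further CCAAT matches, in RRM2 249 bases before its other start site and in DTYMK 92 bases before the start, are not printed, nor are the CHR matches. CCAAT, the letters bound by NF-Y, was found in 5 of the 12 windows, against 34.6% of all 35116 windows of this length. TTTNNCGC, an E2F motif, was found in 3 of the 12 windows (TYMS, DUT and DCK), against 6.89% of all windows. The DCK match lay 21 bases after its start site. TTTGAA, the CHR letters, was found in 2 of the 12 (RRM1 and DUT), against 15.2%. Windows of the same gene can overlap, so the 12 are not independent. By gene, CCAAT was found in 4 of the 7 searched, TTTNNCGC in 3 and TTTGAA in 2. A gene with several windows has more room for a match, and the share by gene over all genes was not computed. The TTTNNCGC and TTTGAA matches of DUT lay in the window of the start site at 48332197, and its other windows held none. The 3 motifs were counted separately, and no match of one overlapped a match of another in the sites shown. A match describes the sequence and does not show that a factor is bound.

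Levels are in FPKM, a fragment count divided by gene length and by a library total, so that genes of a table can be compared with each other. The tables of the 2 lines were normalized separately, and levels from them are only set side by side. The FPKM steps correspond to 16384151 to 18868874 reads per library in 786-O and 17772716 to 29353270 in 5637. CBX7 itself remained at 61.0% of the control mean in shCBX7 cells of 786-O (limma adjusted p = 0.00364) and at 83.3% in shCBX7 cells of 5637 (limma adjusted p = 0.0188). In 5637, CBX7 no longer passed when shCBX7 library 2 was left out (limma adjusted p = 0.0608) or when control library 3 was (limma adjusted p = 0.0586). KRT5, a keratin of basal urothelium, averaged 265 FPKM in shCBX7 and 189 FPKM in control cells of 5637 and was listed at 0 in 786-O. PAX8, a transcription factor of renal tubules, averaged 30.3 FPKM in shCBX7 and 37.8 FPKM in control cells of 786-O, and 0.155 FPKM in shCBX7 and 0.105 FPKM in control cells of 5637. Other markers of the same lists did not separate the lines in this way. KRT19 averaged 210.1 FPKM in shCBX7 and 179 FPKM in control cells of 786-O. EPAS1 and CA9, of the renal list, were lower in 786-O (20.1 and 0.624 FPKM in shCBX7, 18.7 and 0.674 FPKM in control cells) than in 5637 (50.8 and 1.96 FPKM in shCBX7, 51.0 and 2.70 FPKM in control cells). The 8 leukocyte markers summed to at most 1.74 FPKM in any library, and CD3E was at 0 in all 12. The endothelial markers summed to at most 0.786 FPKM. The 6 fibroblast markers summed to 2.93 to 3.44 FPKM in shCBX7 and 2.12 to 2.58 FPKM in control libraries of 786-O, and to 12.5 to 13.3 FPKM in shCBX7 and 14.6 to 15.2 FPKM in control libraries of 5637, where COL1A1 made up most of the sum.

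In 786-O, 7 of the 8 enzymes were lower in shCBX7 than in control cells, by amounts that ran from 33.7% of the control mean for TK1 to 90.1% for RRM2, and DCK did not pass the test. In 5637, 3 of the 8 were lower, RRM2B at 85.1%, TK1 at 88.2% and DTYMK at 91.8% of the control mean. The test was limma on log2(FPKM + 1), a scale that understates the change of low values, with Benjamini-Hochberg adjustment over all genes of the table and calls under 0.05. Among all genes tested, 26.2% were called lower in 786-O and 20.2% in 5637. The median log2 change of the 8 enzymes was -0.53 in 786-O, against -0.011 over all 13220 genes tested, and -0.033 in 5637, against 0.0095 over all 12689. All 8 passed the filter of a mean of at least 0.5 FPKM in both lines. The shCBX7 libraries lay below every control library for 7 of the 8 enzymes in 786-O and for 3 of the 8 in 5637, and such a separation downwards was found for 31.0% and 25.7% of all genes tested. In these bulk samples, fewer cells that express a gene and less RNA per cell cannot be told apart.

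**Figure D1:**
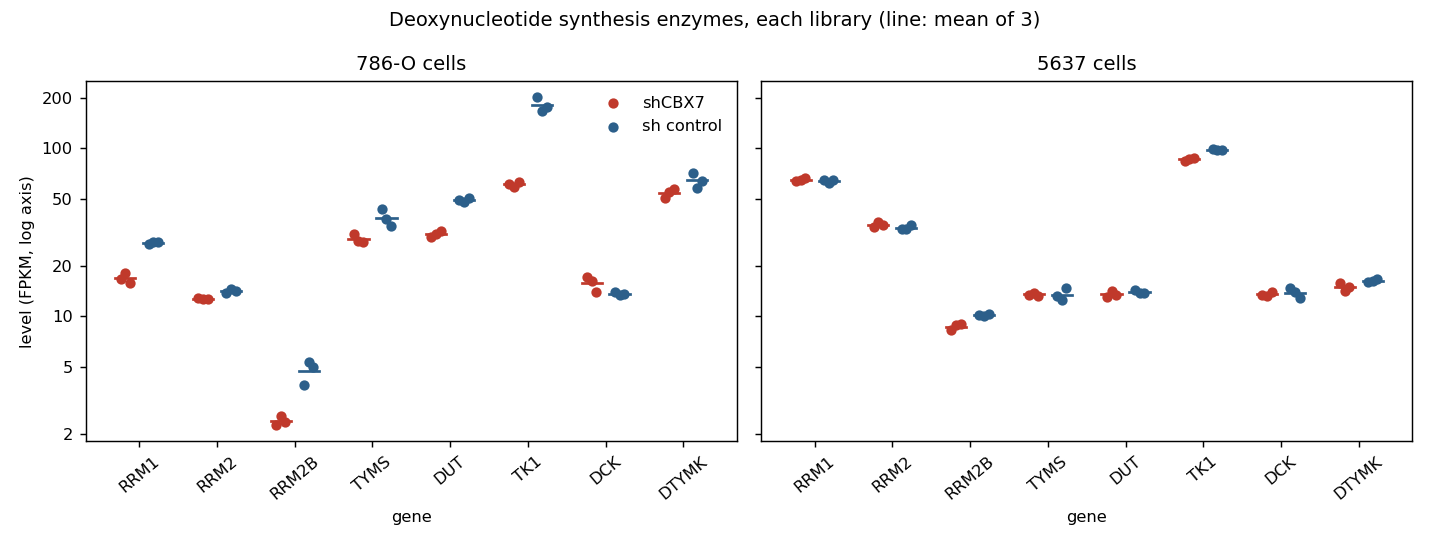
FPKM of the 8 enzymes in each library (log axis), with 786-O on the left and 5637 on the right, shCBX7 in red and sh control in blue, and the mean of 3 libraries as a line. TK1 in 786-O stands between 58.7 and 63.1 FPKM in shCBX7 libraries, against 167 to 200.3 FPKM in control libraries, while most enzymes of 5637 have arms that lie close together.

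Of the ribonucleotide reductase genes in 786-O, RRM2B fell to 50.6%, RRM1 to 61.4% and RRM2 to 90.1% of the control mean. RRM1, on the plus strand of chromosome 11 from 4094707 to 4138876 (GRCh38, GENCODE release 29), had 16.6, 18.2 and 15.7 FPKM in shCBX7 libraries of 786-O, against 26.8, 27.8 and 27.7 FPKM in control libraries. Every shCBX7 library lay below every control library, and the log2 change was -0.68 (SE 0.059, limma adjusted p = 8.14e-05). In 5637, RRM1 had 63.4, 64.6 and 66.1 FPKM in shCBX7 libraries and 65.0, 61.8 and 64.9 FPKM in control libraries. The arms overlapped, and the log2 change of 0.018 had a 95% interval of -0.046 to 0.082 (limma adjusted p = 0.625).

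RRM2, on the plus strand of chromosome 2 from 10120698 to 10131419, had 12.9, 12.6 and 12.7 FPKM in shCBX7 libraries of 786-O, against 13.7, 14.6 and 14.1 FPKM in control libraries. The arms were narrow and did not overlap, and the log2 change was -0.14 (SE 0.046, limma adjusted p = 0.0351). That call was lost in 9 of 13 alternatives, among them the fits without any 1 of 5 of the 6 libraries (limma adjusted p of 0.0234 to 0.102 over the 6 fits that leave out a library); it held without control library 1. In 5637, RRM2 had 34.1, 36.2 and 34.9 FPKM in shCBX7 libraries and 33.2, 32.8 and 34.7 FPKM in control libraries, which overlapped (log2 change 0.059, 95% interval -0.013 to 0.13, limma adjusted p = 0.158).

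RRM2B, the p53-induced small subunit on chromosome 8, was the enzyme with the lowest level in every arm. It had 2.26, 2.56 and 2.37 FPKM in shCBX7 libraries of 786-O, against 3.90, 5.34 and 4.97 FPKM in control libraries. The arms did not overlap, with a log2 change of -0.75 (SE 0.10, limma adjusted p = 6.57e-04), and the control libraries were the more scattered arm. In 5637 it had 8.26, 8.83 and 8.96 FPKM in shCBX7 libraries, against 10.2, 10.1 and 10.3 FPKM in control libraries. They were separate there too, and the log2 change was -0.21 (SE 0.032, limma adjusted p = 0.00214). The values rest on 234 to 543 reads per library in 786-O and 907 to 1746 in 5637.

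Both enzymes on the way to thymidylate fell in 786-O, and neither passed the test in 5637. DUT, on the plus strand of chromosome 15 from 48331011 to 48343373, had 29.8, 31.0 and 32.1 FPKM in shCBX7 libraries of 786-O, against 49.1, 47.7 and 50.3 FPKM in control libraries. Within each arm the libraries stood close together, and the log2 change was -0.65 (SE 0.047, limma adjusted p = 3.27e-05). In 5637 it had 13.0006, 14.1 and 13.4 FPKM in shCBX7 libraries and 14.2, 13.7 and 13.8 FPKM in control libraries, with overlapping arms (log2 change -0.042, 95% interval -0.12 to 0.035, limma adjusted p = 0.335).

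TYMS, on the plus strand of chromosome 18 from 657604 to 673578, had 31.0, 28.0 and 27.5 FPKM in shCBX7 libraries of 786-O, against 43.2, 38.1 and 34.5 FPKM in control libraries. The gap between the arms was smaller than the spread of the control libraries, though the arms did not overlap, and the log2 change was -0.40 (SE 0.086, limma adjusted p = 0.00603). In 5637 it had 13.4, 13.8 and 13.2 FPKM in shCBX7 libraries, inside the range of the control libraries at 13.2, 12.5 and 14.7 FPKM. The log2 change there was 0.0075 with a 95% interval of -0.12 to 0.13 (limma adjusted p = 0.921), and its sign turned under quantile normalization and median centring.

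TK1, the thymidine kinase, had the largest fall among the 8 enzymes in 786-O. It lies on the minus strand of chromosome 17 from 78174075 to 78187233, and had 61.2, 58.7 and 63.1 FPKM in shCBX7 libraries of 786-O, against 200.3, 167 and 175 FPKM in control libraries. No control library came near the shCBX7 libraries, and the log2 change was -1.55 (SE 0.072, limma adjusted p = 4.99e-06). In 5637 it had 84.0, 86.1 and 87.9 FPKM in shCBX7 libraries, against 98.3, 97.1 and 97.2 FPKM in control libraries. The arms were again apart, with a log2 change of -0.18 (SE 0.022, limma adjusted p = 8.00e-04).

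DCK, the deoxycytidine kinase, was the enzyme of the 8 that was not lower in 786-O. On the plus strand of chromosome 4 from 70992538 to 71030914, it had 17.1, 16.2 and 13.9 FPKM in shCBX7 libraries of 786-O and 14.0, 13.4 and 13.5 FPKM in control libraries. The shCBX7 library 3 lay within the control range, and the log2 change was 0.19 (SE 0.075, 95% interval 0.012 to 0.36 before adjustment, limma adjusted p = 0.0723). Without that library the change was 0.27 and passed the test (limma adjusted p = 0.00916), as it did with quantile normalization (limma adjusted p = 0.0493) and with voom on recovered reads (adjusted p = 0.0311). In 5637, DCK had 13.5, 13.3 and 14.0 FPKM in shCBX7 libraries and 14.7, 13.9 and 12.9 FPKM in control libraries, which overlapped (log2 change -0.024, 95% interval -0.13 to 0.087, limma adjusted p = 0.713).

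DTYMK, which phosphorylates the thymidylate that TYMS and TK1 make, fell slightly in both lines. On the minus strand of chromosome 2 from 241675742 to 241686991, it had 50.9, 54.5 and 57.3 FPKM in shCBX7 libraries of 786-O, against 71.3, 58.2 and 63.9 FPKM in control libraries (log2 change -0.24, SE 0.080, limma adjusted p = 0.0375). The highest shCBX7 and the lowest control library were close. In 5637 it had 15.8, 14.1 and 14.96 FPKM in shCBX7 libraries, against 16.0, 16.2 and 16.6 FPKM in control libraries (log2 change -0.12, SE 0.039, limma adjusted p = 0.0459). Both calls were fragile. In 786-O the call was lost without shCBX7 library 1 or 2 or control library 1 or 3 (limma adjusted p up to 0.117), and in 5637 without any library but shCBX7 library 1 (limma adjusted p up to 0.129).

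**Figure D2:**
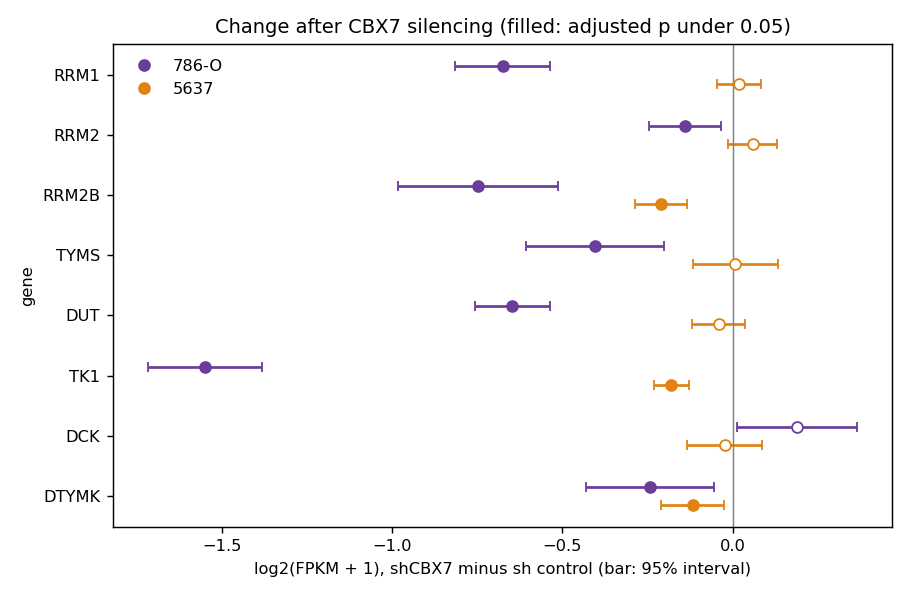
Change of each enzyme on the log2(FPKM + 1) scale, shCBX7 minus sh control, with its 95% interval, for 786-O (purple) and 5637 (orange). Filled points have a limma adjusted p under 0.05. TK1 at -1.55 stands farthest from 0 in 786-O, and in 5637 all 8 changes lie between -0.21 and 0.059.

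An exact two-sided permutation test of each enzyme gave p = 0.1, the smallest that 3 against 3 libraries allow, for the enzymes whose arms did not overlap, and larger values for the others. Such a test cannot pass 0.05 in this design.

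The changes of the 2 lines were set against each other with an interaction term over all 12 libraries, the change in 786-O minus the change in 5637. The change in 786-O was the more negative for 7 of the 8 enzymes, and 6 of these differences were called, while 29% of all 12777 genes tested were called in this direction, 24.3% in the other and 53.3% in either. The difference was -1.37 for TK1 (SE 0.079, limma adjusted p = 9.02e-08), -0.69 for RRM1 (SE 0.065, limma adjusted p = 4.42e-06) and -0.61 for DUT (SE 0.055, limma adjusted p = 3.33e-06). RRM2B and TYMS differed by -0.54 (SE 0.11, limma adjusted p = 0.00157) and -0.41 (SE 0.11, limma adjusted p = 0.00777). The size for RRM2B, the enzyme with the lowest level, depended on the setting and ran from -0.74 to -0.46 over the 18 alternatives. RRM2, whose change in 5637 did not pass, still differed between the lines by -0.20 (SE 0.050, limma adjusted p = 0.00558). DTYMK, lower in both lines, had a difference of -0.12 with a 95% interval of -0.34 to 0.086 (limma adjusted p = 0.297), and DCK had one of 0.21 with a 95% interval of 0.0058 to 0.42 before adjustment (limma adjusted p = 0.0779). CBX7 itself differed in the same fit by -0.22 (SE 0.075, limma adjusted p = 0.0268), a call that held in 12 of 18 alternatives. By its RNA in the main fit, CBX7 thus fell less in 5637, and the line and the degree of silencing cannot be told apart.

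The balance between enzymes was described by ratios within a library. The ratio of RRM2 to RRM1, the S phase small subunit per large subunit, was 0.760 ± 0.059 in shCBX7 and 0.516 ± 0.0099 in control cells of 786-O (SD, n = 3 each), and 0.542 ± 0.017 in shCBX7 and 0.526 ± 0.013 in control cells of 5637. RRM2 stood at 5.33 ± 0.39 times RRM2B in shCBX7 and 3.03 ± 0.43 times in control cells of 786-O, and at 4.04 ± 0.13 times in shCBX7 and 3.29 ± 0.059 times in control cells of 5637. The ratio of RRM2 to RRM2B was higher in every shCBX7 library than in any control library of its line. The ratio of RRM2B to RRM1 was 0.143 ± 0.0076 in shCBX7 and 0.172 ± 0.024 in control cells of 786-O, with overlap, and 0.134 ± 0.0033 in shCBX7 and 0.160 ± 0.0029 in control cells of 5637, without overlap.

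Between the salvage kinases, TK1 stood at 3.92 ± 0.55 times DCK in shCBX7 and 13.2 ± 0.98 times in control cells of 786-O, and at 6.33 ± 0.14 times in shCBX7 and 7.07 ± 0.44 times in control cells of 5637, with no overlap in either line. The ratio of TYMS to TK1, de novo against salvage thymidylate, was 0.473 ± 0.036 in shCBX7 and 0.214 ± 0.015 in control cells of 786-O. In 5637 it was 0.157 ± 0.0057 in shCBX7 and 0.138 ± 0.012 in control cells, with overlap. TYMS to DUT overlapped between the arms in both lines, at 0.935 ± 0.096 in shCBX7 and 0.789 ± 0.097 in control cells of 786-O and at 1.0 ± 0.028 in shCBX7 and 0.966 ± 0.081 in control cells of 5637. Each ratio whose arms did not overlap had p = 0.1 in an exact two-sided permutation test, the smallest possible, and 0.171 after Benjamini-Hochberg adjustment over the 6 ratios and 2 lines, so that none could pass.

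**Figure D3:**
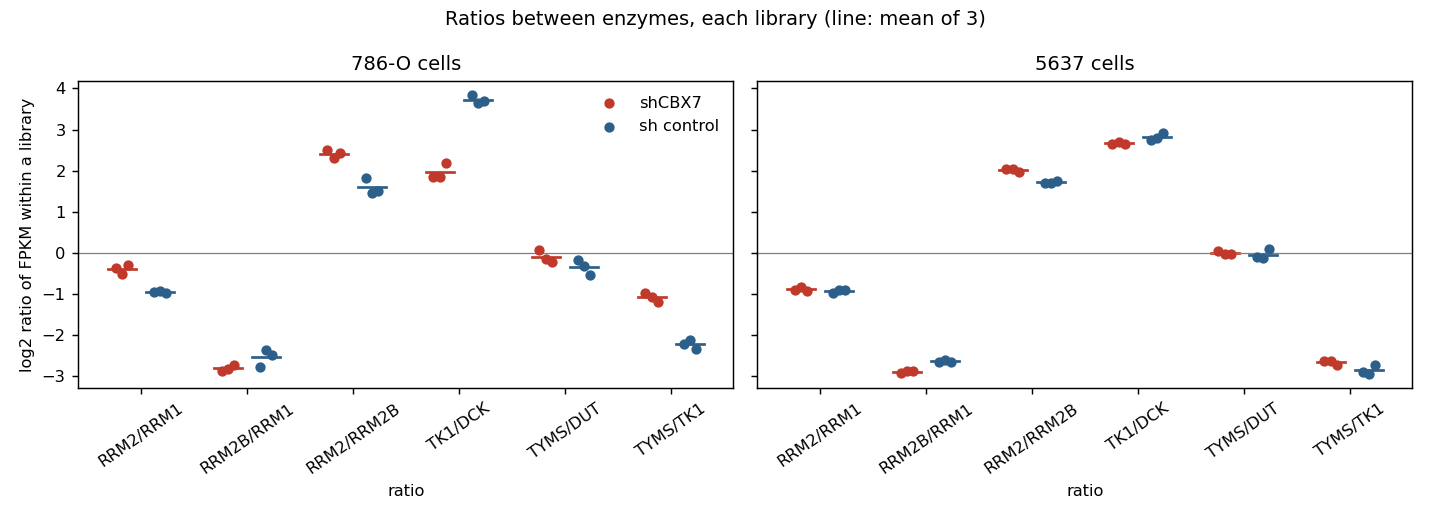
Log2 ratio of the FPKM of 2 enzymes within each library, for 786-O on the left and 5637 on the right, shCBX7 in red and sh control in blue, with the mean of 3 libraries as a line. The ratio of TK1 to DCK in 786-O shows the widest gap, 3.92 in shCBX7 against 13.2 in control cells as means of the unlogged ratio.

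The order of levels also differed between the arms of 786-O and between the lines. In shCBX7 cells of 786-O the order by mean FPKM was TK1, DTYMK, DUT, TYMS, RRM1, DCK, RRM2 and RRM2B, where DUT and TYMS overlapped, as did RRM1 and DCK. In control cells it was TK1, DTYMK, DUT, TYMS, RRM1, RRM2, DCK and RRM2B, where RRM2 and DCK overlapped. TK1 averaged 61.0 ± 2.2 FPKM in shCBX7 cells beside DTYMK at 54.2 ± 3.2 FPKM, and 181 ± 17 FPKM in control cells beside DTYMK at 64.5 ± 6.6 FPKM (SD, n = 3 each). In 5637, both arms had TK1 first, then RRM1, RRM2 and DTYMK, then DUT, DCK and TYMS, whose ranges overlapped, and RRM2B last.

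Some of the genes overlap annotated neighbours or have pseudogene copies, and whether reads were shared was not tested. TYMS overlaps ENOSF1 and TYMSOS on the other strand, DCK overlaps MOB1B on the same strand, and RRM2 overlaps AC007240.1 on the same strand. The strand setting of the counting is not given in the sources used here. In 786-O, ENOSF1 averaged 1.03 FPKM in shCBX7 and 1.23 FPKM in control cells, and TYMSOS 2.96 FPKM in shCBX7 and 3.69 FPKM in control cells. MOB1B averaged 2.39 FPKM in shCBX7 and 2.27 FPKM in control cells, and AC007240.1 0.411 FPKM in shCBX7 and 0.483 FPKM in control cells. Each was below the FPKM of the enzyme it overlaps. By reads, MOB1B held 295 to 397 per library in 786-O, against 718 to 1045 for DCK, so DCK is less certain in 786-O. RRM1-AS1 and AC023355.1, on the other strand of RRM1 and DUT, held 0 to 1 and 2 to 9 reads per library there. In 5637, ENOSF1 averaged 2.89 FPKM in shCBX7 and 3.03 FPKM in control cells. MOB1B averaged there 7.97 FPKM in shCBX7 and 8.30 FPKM in control cells. The mean for DCK was 13.6 FPKM in shCBX7 and 13.8 FPKM in control cells, so DCK is less certain in 5637 as well. Pseudogene copies of RRM2, DUT and TYMS held 0 to 3 reads per library in 786-O over the 13 copies listed, and 20 to 40 reads in 5637 over 8 copies, most of them in DUTP6.

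Genes that work beside the 8 enzymes were read from the same fits. For scale, 51.0% of all genes tested were called in 786-O (24.7% higher and 26.2% lower) and 44.5% in 5637 (24.4% higher and 20.2% lower). Of 17 tested genes that balance or salvage deoxynucleotides, 7 rose and 5 fell in 786-O (median log2 change 0.058), and in 5637 8 rose while the rest were not called (median 0.10). SAMHD1, which breaks down deoxynucleoside triphosphates, rose in 786-O to 11.5 ± 0.16 FPKM in shCBX7 cells, against 3.58 ± 0.28 FPKM in control cells (SD, n = 3 each), a log2 change of 1.46 (SE 0.060, limma adjusted p = 2.98e-06). In 5637 SAMHD1 had 20.1 ± 0.41 FPKM in shCBX7 and 18.2 ± 0.51 FPKM in control cells (log2 change 0.13, limma adjusted p = 0.00675), and the difference between the lines was 1.32 (limma adjusted p = 1.90e-08). In 786-O, CMPK2, a mitochondrial nucleotide kinase, rose to 2.67 ± 0.28 FPKM in shCBX7 against 0.607 ± 0.059 FPKM in control cells, and UPP1, a uridine phosphorylase, to 46.9 ± 0.88 FPKM in shCBX7 against 27.8 ± 2.8 FPKM in control cells. In 5637, the nucleoside diphosphate kinase NME1 rose to 7.16 ± 0.13 FPKM in shCBX7 against 5.51 ± 0.093 FPKM in control cells, the dCMP deaminase DCTD to 20.2 ± 0.59 FPKM in shCBX7 against 17.8 ± 0.32 FPKM in control cells, and the nucleoside carrier SLC29A2 to 4.69 ± 0.0093 FPKM in shCBX7 against 3.95 ± 0.21 FPKM in control cells. NME1 has a close neighbouring copy, NME2, so its value is less certain.

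The folate cycle hands TYMS its methyl group. Of its 10 genes, 2 rose and 4 fell in 786-O (median log2 change -0.15), and 6 rose and 1 fell in 5637 (median 0.12). SHMT1, which loads 1-carbon units onto folate, had 6.44 ± 0.24 FPKM in shCBX7 and 11.6 ± 0.48 FPKM in control cells of 786-O, and MTHFD1 had 11.8 ± 0.20 FPKM in shCBX7 and 14.0 ± 0.15 FPKM in control cells. GGH, which trims folate chains, rose there to 77.5 ± 1.8 FPKM in shCBX7 against 59.0 ± 3.0 FPKM in control cells. In 5637 the folate carrier SLC19A1 rose to 4.99 ± 0.11 FPKM in shCBX7 against 3.92 ± 0.095 FPKM in control cells, FPGS, which lengthens folate chains, to 26.0 ± 0.44 FPKM in shCBX7 against 22.3 ± 0.28 FPKM in control cells, and MTHFD1L to 21.0 ± 0.18 FPKM in shCBX7 against 19.1 ± 0.20 FPKM in control cells.

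Ribonucleotides, the substrates of the reductase, come from pyrimidine and purine synthesis. Of 7 pyrimidine genes, 2 rose and 2 fell in 786-O (median log2 change -0.12), and in 5637 5 rose while the rest were not called (median 0.22). CAD, which carries out the first steps, fell in 786-O to 4.74 ± 0.095 FPKM in shCBX7 against 8.09 ± 0.080 FPKM in control cells, and rose in 5637 to 20.03 ± 0.32 FPKM in shCBX7 against 17.1 ± 0.50 FPKM in control cells, a difference between lines of -0.88 (limma adjusted p = 3.37e-08). The CTP synthase CTPS1 rose in both, to 10.4 ± 0.43 FPKM in shCBX7 against 7.61 ± 0.45 FPKM in control cells of 786-O and to 12.1 ± 0.50 FPKM in shCBX7 against 8.84 ± 0.41 FPKM in control cells of 5637. DHODH fell in 786-O (2.55 ± 0.27 FPKM in shCBX7, 3.69 ± 0.062 FPKM in control cells), and UMPS, which completes UMP, rose in 5637 (5.64 ± 0.15 FPKM in shCBX7, 4.53 ± 0.035 FPKM in control cells).

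Of the purine genes, 11 of 15 tested fell and 1 rose in 786-O (median log2 change -0.31), while 9 of 14 rose and 2 fell in 5637 (median 0.11). PFAS, an enzyme of the de novo purine route, fell in 786-O to 4.89 ± 0.36 FPKM in shCBX7 against 12.04 ± 0.70 FPKM in control cells, and rose in 5637 to 4.59 ± 0.16 FPKM in shCBX7 against 2.84 ± 0.080 FPKM in control cells. Its changes differed between the lines by -1.69 (limma adjusted p = 1.06e-08). IMPDH2, which opens the branch to guanine nucleotides, fell in 786-O to 60.1 ± 2.3 FPKM in shCBX7 against 138 ± 6.7 FPKM in control cells, and the adenosine kinase ADK to 6.92 ± 0.37 FPKM in shCBX7 against 12.2 ± 0.55 FPKM in control cells. In 5637, PAICS rose to 25.2 ± 0.17 FPKM in shCBX7 against 21.5 ± 0.56 FPKM in control cells, and PRPS1, which makes the sugar phosphate donor, to 40.7 ± 0.51 FPKM in shCBX7 against 34.6 ± 1.2 FPKM in control cells.

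Genes of the S phase, when these enzymes are most in demand, were mostly lower in 786-O: 18 of 20 fell and the rest were not called (median log2 change -0.48), against 4 that fell and 5 that rose in 5637 (median 0.016). The replication helicase gene MCM6 fell in 786-O to 11.4 ± 0.33 FPKM in shCBX7 against 24.5 ± 0.72 FPKM in control cells, MCM4 to 29.5 ± 0.70 FPKM in shCBX7 against 50.02 ± 1.5 FPKM in control cells, and MCM7 to 75.7 ± 1.8 FPKM in shCBX7 against 117 ± 5.8 FPKM in control cells. In 5637 the licensing factor gene CDT1 fell to 19.7 ± 0.080 FPKM in shCBX7 against 24.2 ± 1.3 FPKM in control cells, while UHRF1 rose to 15.8 ± 0.29 FPKM in shCBX7 against 13.8 ± 0.44 FPKM in control cells and CDC45 to 8.37 ± 0.27 FPKM in shCBX7 against 6.76 ± 0.43 FPKM in control cells. The part of S phase content in the changes of the 8 enzymes was not tested.

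The E2F, RB and DREAM regulators of such genes moved in both directions, with 6 of 20 higher and 6 lower in 786-O (median log2 change 0.031) and 4 higher and 4 lower in 5637 (median -0.014). MYBL2, the activating partner that replaces DREAM's repressors, rose to 152 ± 4.9 FPKM in shCBX7 against 97.6 ± 5.5 FPKM in control cells of 786-O, and to 89.7 ± 1.7 FPKM in shCBX7 against 78.3 ± 0.50 FPKM in control cells of 5637. FOXM1, a driver of mitotic genes, fell in 786-O to 11.8 ± 0.55 FPKM in shCBX7 against 18.3 ± 0.49 FPKM in control cells, and E2F4, the E2F of the repressive complex, to 23.5 ± 0.96 FPKM in shCBX7 against 34.98 ± 1.6 FPKM in control cells. In 5637 RBL1, a pocket protein, rose to 8.20 ± 0.087 FPKM in shCBX7 against 6.87 ± 0.23 FPKM in control cells, and E2F5 fell to 6.02 ± 0.20 FPKM in shCBX7 against 7.23 ± 0.29 FPKM in control cells. E2F1, chosen after its values were seen, had 38.4 ± 2.7 FPKM in shCBX7 and 36.5 ± 4.2 FPKM in control cells of 786-O (limma adjusted p = 0.506).

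RRM2B, a p53 target, was lower in both lines, and the other p53 targets went both ways. Of 15 tested, 7 rose and 3 fell in 786-O (median log2 change 0.17), and 3 rose and 6 fell in 5637 (median -0.069). In 786-O, where RRM2B fell, the cell cycle inhibitor CDKN1A rose to 139 ± 3.4 FPKM in shCBX7 against 46.2 ± 4.5 FPKM in control cells, the stress cytokine GDF15 to 112 ± 3.1 FPKM in shCBX7 against 39.6 ± 4.9 FPKM in control cells, and SESN2, a sestrin, to 30.6 ± 0.23 FPKM in shCBX7 against 15.5 ± 1.3 FPKM in control cells. The 3 that fell there, named after their values were seen, were TP53I3, SESN1 and FDXR. TP53I3 had 0.642 ± 0.079 FPKM in shCBX7 and 1.68 ± 0.27 FPKM in control cells. In 5637 CDKN1A fell to 84.2 ± 1.3 FPKM in shCBX7 against 91.2 ± 0.77 FPKM in control cells, the repair gene DDB2 to 11.4 ± 0.25 FPKM in shCBX7 against 14.0 ± 0.30 FPKM in control cells, and the death effector BAX rose to 17.5 ± 0.26 FPKM in shCBX7 against 15.5 ± 0.54 FPKM in control cells. The changes of CDKN1A differed between the lines by 1.69 (limma adjusted p = 1.40e-08).

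**Figure D4:**
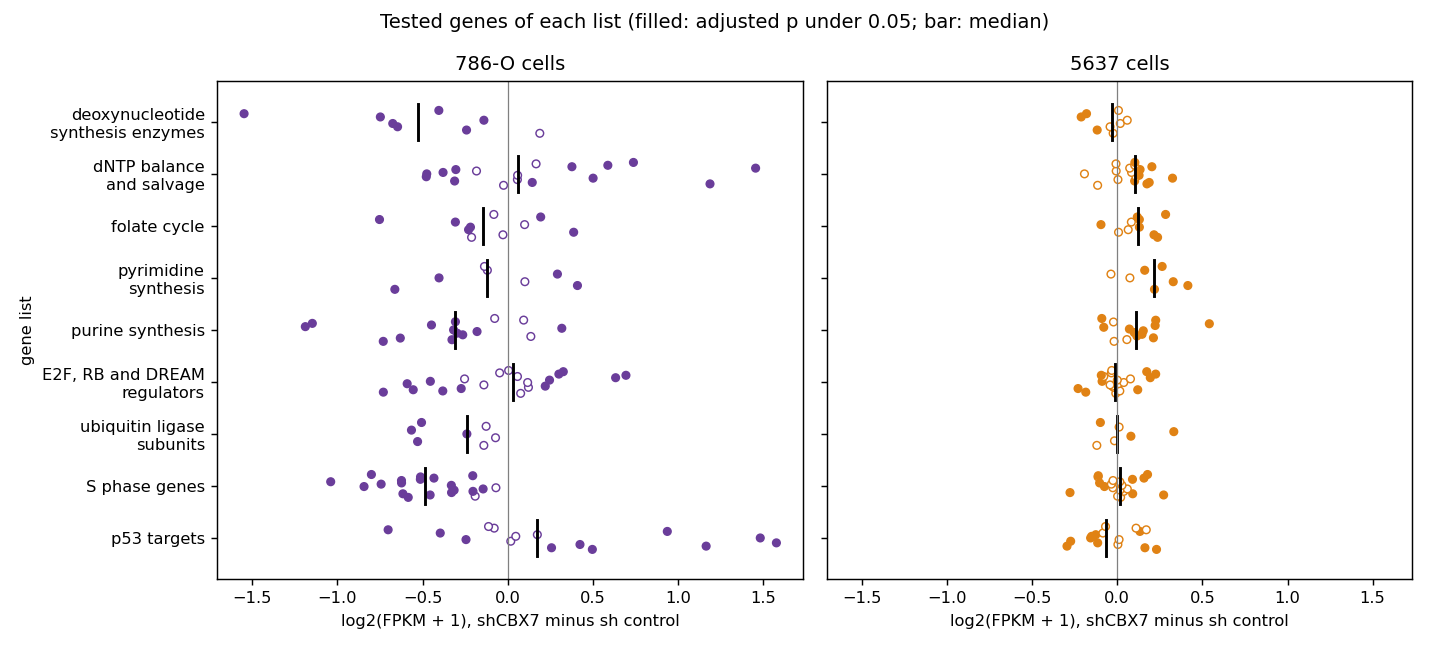
Change on the log2(FPKM + 1) scale, shCBX7 minus sh control, of each tested gene of the 8 enzymes and of 8 lists, for 786-O on the left and 5637 on the right, with the median as a black bar and filled points for a limma adjusted p under 0.05. In 786-O 6 of the 9 medians lie left of 0, those of the 8 enzymes (-0.53), the S phase genes (-0.48), purine synthesis (-0.31), the ubiquitin ligase subunits (-0.24), the folate cycle (-0.15) and pyrimidine synthesis (-0.12), and in 5637 all 9 medians lie between -0.069 and 0.22.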

How the data were processed

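Gene expression was measured by RNA-seq in 12 libraries of 2 cell lines, grouped by title and genotype label. What the authors deposited is FPKM, per the file headers, in a table of its own for each line with its own normalization. The aligner, counter or strand setting is not given in the sources used here. The build named by the submitters' processing notes is mm10, a mouse build, whereas the cells are human. Positions in the 786-O table equal those of GENCODE release 29 (GRCh38) for 58724 of 58735 genes, the 8 enzymes included. The 5637 control columns could be tied to the group only, 2 of their sample titles carry another number, and the columns of the tables say si where the labels say sh. Labels give no batch or date. Identical libraries numbered 0 among the 15 pairs of each line.

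Whole reads were recovered from the FPKM steps (tolerance 0.01 reads) in 786-O for 58735 of 58735 genes, in 5637 for 28099 of 29890 (94.0%), for depth and 1 alternative. Genes averaging 0.5 FPKM or more were tested on log2(FPKM + 1) with limma 3.58.1 (R 4.3.3, mean-variance trend, Benjamini-Hochberg adjustment). The scripts were tested on simulated data. Alternatives were a pseudocount of 0.1, no filter, quantile normalization, median centring, no trend, voom on recovered reads (7248 genes called in 786-O and 5807 in 5637), each library left out and the replicate number as a block. The members and lists were chosen with earlier results of these data known. Named were the 8 enzymes, CBX7, up to 3 called genes per list and line with the smallest p, the 3 genes most like RRM2, RRM2B and TK1 (mean of at least 5 FPKM in each line), and defining cell type markers. A protein comparison was not made. Promoter sequences are from RefSeq.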

Additional observations from a re-analysis of the deposited data

Results flagged for a closer look

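For 6 of the 8 enzymes the change in 786-O differed from the change in 5637 by a test of the difference itself (limma interaction term over 12 libraries, adjusted over all genes). The difference, 786-O minus 5637 on the log2(FPKM + 1) scale, was -1.37 for TK1, -0.69 for RRM1, -0.61 for DUT, -0.54 for RRM2B, -0.41 for TYMS and -0.20 for RRM2. All 6 held in each of the 18 alternatives run for the difference. Such a call was common: of all 12777 genes tested, 53.3% were called for the difference in either direction. In the direction of these 6, with the change in 786-O the more negative, 29% were called. CBX7 itself also differed between the lines, by -0.22 (limma adjusted p = 0.0268), a call that held in 12 of the 18 alternatives. The line and the degree of silencing cannot be told apart. No cause was tested.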

How the results depend on the processing

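The calls of TK1, RRM1, RRM2B, DUT and TYMS in 786-O, of TK1 and RRM2B in 5637 and of 6 enzymes for the difference between lines held in every alternative run. In 5637 the change of TYMS turned to -0.0072 with quantile normalization and to -0.0066 with median centring. Leaving out 1 library at a time, the change in 5637 ran from -0.040 to 0.068 for TYMS, from -0.0057 to 0.033 for RRM1 and from -0.071 to 0.019 for DCK, none of them called, and the cause was not tested. DTYMK was called in 5 of 13 alternatives in each line, RRM2 in 4 of 13 in 786-O and DCK in 3 of 13 in 786-O. With 1 library left out, 5704 to 6734 genes were called in 786-O, 4678 to 5123 in 5637 and 6241 to 7126 for the difference, against 6736, 5651 and 6808 with all libraries.

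The replicate numbers share only a number. Same-numbered libraries correlated in their deviations from the mean of their arm at 0.083, 0.077 and 0.057 in 786-O. Each did best with its own number, which is a hint from the data and not the design. In 5637 these correlations were 0.023, -0.031 and -0.0075. A separate fit with the replicate number as a block called 6723 genes in 786-O and 4942 in 5637. DTYMK (limma adjusted p = 0.0562 in 786-O and 0.0652 in 5637) and RRM2 in 786-O (limma adjusted p = 0.0560) were then not called. Depth limits RRM2B most among the enzymes, at 234 reads in its shallowest library.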

Other observations

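A further list held 7 genes, subunits of ubiquitin ligases that destroy RRM2 or TK1 and the ubiquitin carrier UBE2C. In 786-O, 4 of the 7 fell and the rest were not called (limma, median log2 change -0.24). Of 6 tested in 5637, 2 rose and 1 fell (median -0.0024). Among all genes tested, 51.0% were called in 786-O (24.7% higher and 26.2% lower) and 44.5% in 5637 (24.4% higher and 20.2% lower). CCNF, the cyclin F that marks RRM2 for destruction, fell in 786-O to 5.09 ± 0.43 FPKM in shCBX7 against 7.77 ± 0.18 FPKM in control cells (SD, n = 3 each). FZR1, the CDH1 activator of the anaphase complex, fell there to 12.5 ± 0.70 FPKM in shCBX7 against 18.97 ± 2.0 FPKM in control cells, and UBE2C, its ubiquitin carrier, to 152 ± 2.3 FPKM in shCBX7 against 216 ± 2.0 FPKM in control cells. In 5637, UBE2C fell to 128 ± 3.3 FPKM in shCBX7 against 137 ± 1.2 FPKM in control cells, while the scaffold gene CUL1 rose to 14.3 ± 0.44 FPKM in shCBX7 against 11.1 ± 0.42 FPKM in control cells and CDC27 to 19.1 ± 0.20 FPKM in shCBX7 against 17.97 ± 0.15 FPKM in control cells.

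Among the 4981 candidates (4982 for RRM2B) that averaged 5 FPKM or more in each line, those whose values over the 12 libraries, centred on each line, were most like TK1 were HECTD3, ARL2 and TMEM109 (Pearson r of 0.999, 0.998 and 0.997). For RRM2B they were IPO7, SEC24D and ARHGAP29 (0.995, 0.989 and 0.989), and for RRM2 they were TRIP12, NUP50 and XPO5 (0.958, 0.941 and 0.941). The libraries of an arm share their arm, so that any gene with the same pattern of change scores high, and the values are a description.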
